A study of Mus musculus with 15 samples.

Results

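The Myc peaks described here lay inside genes. They were the peaks of the Myc list at 4 h whose summit, the position of highest tag density, fell within an annotated protein-coding transcript and over 5 kb from any transcription start site (TSS). The annotation was GENCODE vM1 on mm9. Of 23617 Myc 4 h peaks, 4934 met the rule, which is 20.9% of the list. Membership was chosen by position alone within the peaks called in the Myc 4 h library, so the values of that library describe the choice. Another 9755 peaks had their summit within 1000 bp of a TSS and are called promoter peaks below. A further 6069 peaks were over 5 kb from any TSS and outside protein-coding transcripts, and are called distal peaks. The remaining 2859 lay between these distances.

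The study mapped Myc and RNA polymerase II (RNAPII) by chromatin immunoprecipitation and sequencing (ChIP-seq) before MycER activation and at 10, 20 and 30 min, 2 h and 4 h after it. The cells were 3T9 fibroblasts from embryos at E13.5, c-myc flox/flox in genotype and infected in culture with a pBabe MycER construct. MycER is a Myc protein fused to an estrogen receptor domain, and 4-hydroxytamoxifen (OHT) at 400 nM activated it. All fibroblast libraries, the untreated ones included, came from cells that carried MycER. The labels name no Cre and no deletion of the flox/flox alleles, and the Myc antibody N262 does not tell MycER from endogenous Myc. RNAPII was precipitated with antibody N20. Miz1 (Zbtb17), a zinc finger protein that can bind Myc, was precipitated with antibody 10E2 from these fibroblasts without OHT and from wild-type C57BL/6 splenic B cells enriched on B220 beads from animals of 6 to 8 weeks. Each group was 1 library, so no difference between times or factors was tested, and the intervals given below cover counting error only. The 6 Myc libraries held 28132063 to 33431447 tags, the RNAPII libraries 15276996 to 36396286, the fibroblast Miz1 library 10164509 and the B cell library 24237295.

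Myc binds DNA as a dimer with Max and prefers the E-box, the palindrome CACGTG, and close variants of it. Its best known sites are active promoters, where RNAPII is loaded and pauses, but in fibroblasts it also occupies sequences far from promoters, some of which act as enhancers. Such open sequences in fibroblasts often carry the AP-1 motif, which is bound by Fos and Jun proteins.

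The sequences of 6 sites with an E-box at high fold enrichment show what lay under these summits. They are the plus strand of mm9, with CACGTG in capitals, and all 6 were intronic. The Vps37b site (chr5:124457271-124457336) lay in the gene of a subunit of the ESCRT-I sorting complex.
Vps37b: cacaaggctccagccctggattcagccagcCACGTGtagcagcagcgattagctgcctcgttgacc
The Bahcc1 window was chr11:120122961-120123026.
Bahcc1: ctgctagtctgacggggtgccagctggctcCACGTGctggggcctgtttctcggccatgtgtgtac
The window in Angptl2, which encodes a secreted angiopoietin-like protein, and in the overlapping Ralgps1 was chr2:33079341-33079406.
Angptl2: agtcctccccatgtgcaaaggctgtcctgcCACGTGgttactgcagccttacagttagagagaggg
The window in Camk1d, a calcium/calmodulin-dependent kinase, was chr2:5534967-5535032.
Camk1d: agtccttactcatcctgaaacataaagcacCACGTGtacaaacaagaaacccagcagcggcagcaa
The window in Cdh3, which encodes P-cadherin, was chr8:109042731-109042796.
Cdh3: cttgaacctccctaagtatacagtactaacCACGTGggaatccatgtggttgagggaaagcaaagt
The window in Msi2, an RNA-binding protein of the Musashi family, was chr11:88364632-88364697.
Msi2: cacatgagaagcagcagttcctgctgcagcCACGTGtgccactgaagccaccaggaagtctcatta
The E-box centre lay between 10 and 97 bp from the summit at these 6 sites, nearest in Cdh3 and farthest in Bahcc1.

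Other sites of high fold carried no CACGTG. The site of highest fold, in the first window below, held 6 copies of the variant CATGTG or its complement CACATG, here in capitals (chr8:96382308-96382433). It lay in an intron of Gnao1, the gene of a G protein alpha subunit.
Gnao1: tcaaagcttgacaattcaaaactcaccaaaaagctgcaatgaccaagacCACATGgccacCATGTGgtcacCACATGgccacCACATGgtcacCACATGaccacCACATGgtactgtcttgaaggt
The Dchs1 site, in the gene of the large cadherin Dachsous, held CACGCG, in capitals (chr7:112926331-112926396).
Dchs1: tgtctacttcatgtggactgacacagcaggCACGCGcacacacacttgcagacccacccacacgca
The Cdh23 site, in the gene of another cadherin, held the AP-1 motif TGANTCA, in capitals, and neither CACGTG nor CATGTG (chr10:60036296-60036362). It was called at every later time but not at 0 min, with a fold of 22.7 at 4 h.
Cdh23: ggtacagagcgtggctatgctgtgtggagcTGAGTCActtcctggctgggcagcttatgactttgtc
A few sites held E-boxes in series. The Nlrp4c site had 5 in the 200 bp around its summit, and 3 of them are in the window shown (chr7:6025945-6026070).
Nlrp4c: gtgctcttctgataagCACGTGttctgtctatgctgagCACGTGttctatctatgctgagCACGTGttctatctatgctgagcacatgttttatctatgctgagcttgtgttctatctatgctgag

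Over all 4934 sites, 12.3% had CACGTG within 100 bp of the summit (95% Wilson interval 11.4 to 13.2), beside 14.2% of all Myc 4 h peaks. In windows of the same width 1000 bp to either side of the sites the share was 2.93%. Each motif was searched on both strands. Of the 607 sites with an E-box, 579 had 1, 25 had 2, 2 had 3 and 1 had 5. The E-boxes gathered at the summit. The 50 bp on its left held 43.8 per 1000 sites and those on its right 49.9, against 4.86 to 8.72 in the bins between 100 and 250 bp away.

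**Figure D1:**
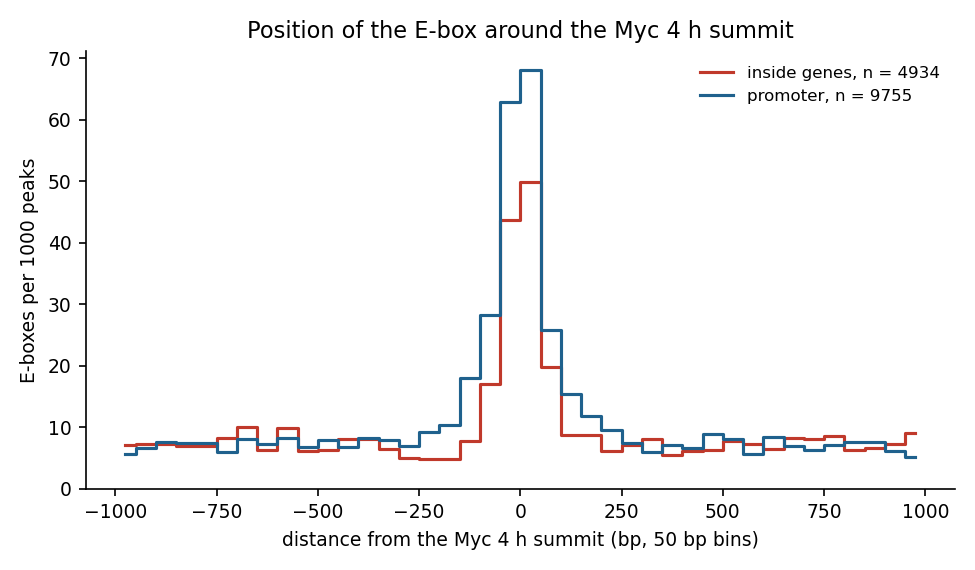
E-boxes per 1000 peaks (y axis) in 50 bp bins around the Myc 4 h summit (x axis, bp) for sites inside genes and promoter peaks. Both lines peak at the summit, inside genes at 49.9 per 1000 sites, and are low beyond about 200 bp.

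The motifs around the E-box differed between sites inside genes and promoters. CACGCG was found at 2.31% of the sites, against 10.9% of all Myc 4 h peaks and 21.4% of promoter peaks. CATGTG went the other way, with 39.2% of the sites, 26.3% of all peaks and 11.2% of promoter peaks, and it was in 17.0% of the flanking windows of the sites. The AP-1 motif TGANTCA was found at 40.7% of the sites (39.3 to 42.1), 24.9% of all peaks and 6.17% of promoter peaks, and in 6.27% of the flanking windows of the sites. Distal peaks resembled the sites inside genes, with CATGTG at 35.6% and TGANTCA at 39.1%. CAGCTG, an E-box form bound by other basic helix-loop-helix proteins, was at 14.8% of the sites, 13.5% of all peaks and 9.99% of the flanking windows. Base composition differed with these classes. The median GC content of the 201 bp at the summit was 49.8% inside genes and 63.7% at promoter peaks, and the observed to expected CpG ratio was 0.23 and 0.79.

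The fold enrichment, tag count and p of a peak are the authors' own values for 1 list, and they are used here only to describe or rank peaks within it. Inside genes the fold at 4 h ran from 3.50 to 100.4, with a median of 10.1 and the middle 50% of sites between 7.60 and 15.2. Distal peaks had a median of 10.2 and promoter peaks of 17.0. The median site was 1538 bp long and lay 19800 bp from the nearest TSS. On the edge of the rule, the 3 nearest sites inside it were in Tkt (5005 bp from a TSS, 8.26-fold), Coro7 (5009 bp, 17.9-fold) and Afap1 (5011 bp, 28.1-fold). The 3 nearest peaks just outside it were in Ctcfl (4999 bp, 34.9-fold), Acsl5 (4996 bp, 3.44-fold) and Lrp5 (4995 bp, 13.4-fold).

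Most of the sites were also called in the other Myc lists. At 0 min 70.9% of them overlapped a peak (69.6 to 72.2), beside 79.8% of all Myc 4 h peaks. At 10 min the share was 88.4% beside 91.9%, at 20 min 92.3% beside 94.7%, at 30 min 85.1% beside 89.7%, and at 2 h 95.03% beside 96.6%. In each list the sites were below all peaks, and the gap was widest at 0 min. The 0 min list held 19995 peaks from 33431447 tags, and the 4 h list 23617 peaks from 29034076. What set the gap was not tested. Distal peaks were close to the sites at 0 min, with 70.4%, and promoter peaks stood at 91.9%. In all 6 lists there were 3257 sites, 66.0% of them, beside 76.2% of all peaks. Another 635 sites, 12.9%, were called at every later time but not at 0 min, beside 9.08% of all peaks. Just 105 sites, 2.13%, were in no other Myc list, beside 1.39%. Summits were stable where lists shared a site. The median distance from the 4 h summit was 41 bp at 0 min and 35 to 37 bp at the 4 later times, and 91.8% of the shared sites had a 0 min summit within 200 bp.

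**Figure D2:**
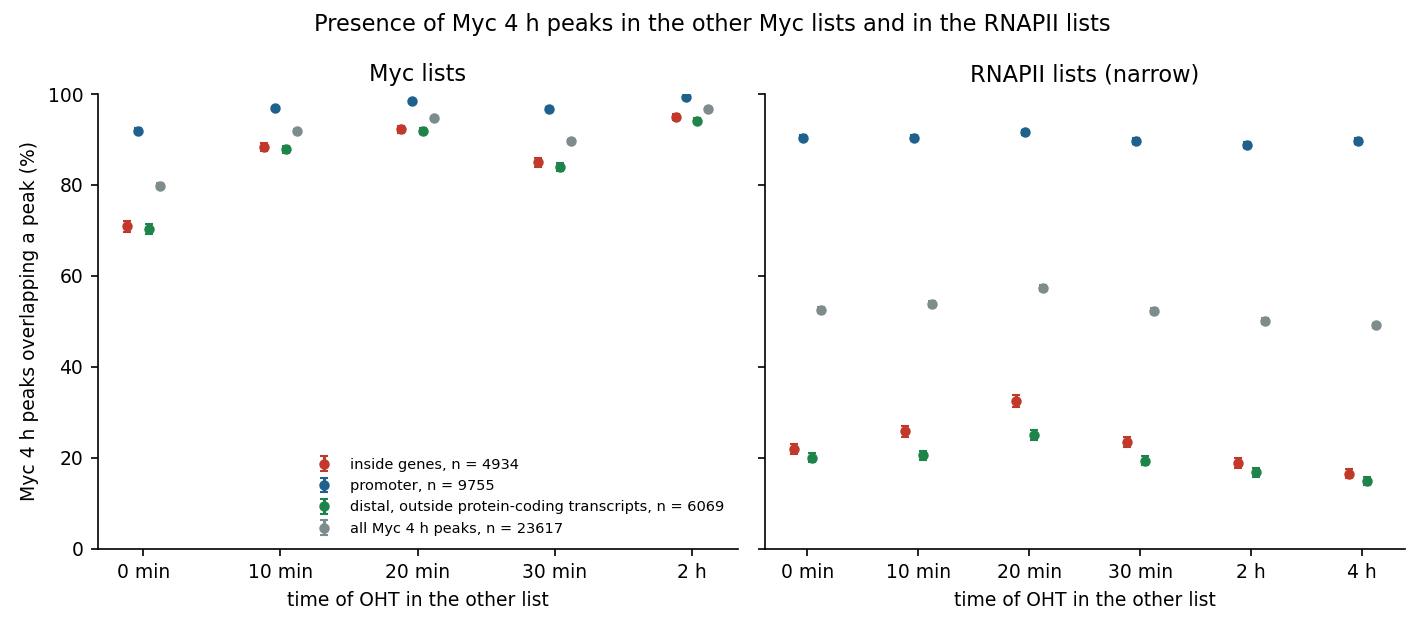
Share of Myc 4 h peaks (y axis, %) that overlapped a peak of the other Myc lists (left) and of the narrow RNAPII lists (right), by time of OHT (x axis), for 4 classes of peaks. Points are shares and bars their 95% Wilson intervals. Sites inside genes follow distal peaks in the Myc lists, and in the RNAPII lists both sit far below promoter peaks.

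The sites of highest fold at 4 h were mostly bound before OHT. The Vps37b site had folds of 73.0 at 0 min, 95.9 at 10 min, 99.7 at 20 min, 89.1 at 30 min, 101.5 at 2 h and 87.8 at 4 h, each relative to the background of its own list. The site in Syne2, which encodes the nuclear envelope protein nesprin-2, had 27.5 at 0 min and then 70.9, 89.6, 86.1, 83.0 and 90.2. The site in Pdpn, the gene of the membrane glycoprotein podoplanin, had 29.0 at 0 min and 69.6, 80.6, 63.3, 77.0 and 75.2 later. In these 3 genes the 0 min list gave the lowest of the 6 values, but values of different lists are not a measure of change. The Bahcc1 site had 54.6 at 0 min and 61.8, 71.6, 67.0, 84.0 and 74.4 later. In Slc7a5, a transporter of large neutral amino acids, the values were 45.0 at 0 min and 67.6, 72.7, 63.9, 80.1 and 76.0 later. The Dchs1 site had 29.2 at 0 min and 62.2, 77.0, 61.3, 74.4 and 78.1 later. The other 4 of the 10 sites of highest fold were in Gnao1, Ctif, Arhgap12 and Parm1, and Gnao1 alone of the 10 had no peak at 0 min. The 0 min values of the other 9 ran from 8.66 in Arhgap12 to 73.0 in Vps37b.

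Gnao1 led the sites that lacked a peak at 0 min and had one in every later list. Its folds were 48.6 at 10 min, 57.7 at 20 min, 81.1 at 30 min, 66.0 at 2 h and 100.4 at 4 h. The next was in Tube1, which encodes epsilon-tubulin, with 9.83, 18.8, 34.4, 26.7 and 44.4 in the same order. Nkpd1 was the third, in coding sequence, with 12.9, 21.7, 39.3, 30.6 and 43.6. All 3 had their lowest value at 10 min and their highest at 4 h, but values of different lists are not a measure of change. Traip, an E3 ubiquitin ligase of DNA replication and repair, had 10.4, 13.6, 27.9, 22.5 and 34.7. The remaining 4 of the 8 highest were in Kctd9, Egf, Fam131a and Ptprt, with 27.9, 25.8, 25.2 and 24.9 at 4 h. Egf and Fam131a had their highest value at 4 h, but Kctd9 had it at 20 min (28.6) and Ptprt at 10 min (25.5). The Gnao1 window held 6 copies of CATGTG on either strand, Tube1 5 and Traip 2, while Egf, Fam131a and Ptprt had 1 each and Nkpd1 and Kctd9 none. The Ptprt site was the only one of the 8 with CACGTG.

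**Figure D3:**
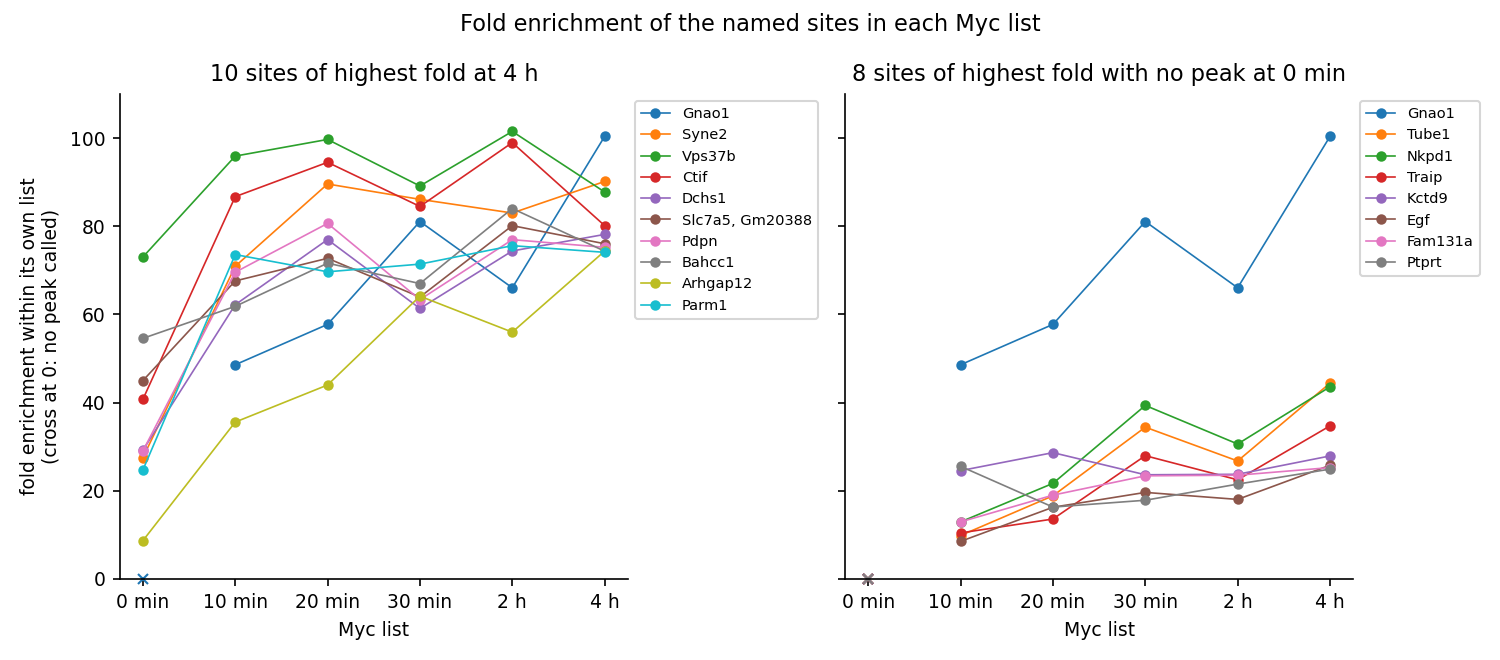
Fold enrichment (y axis) in each of the 6 Myc lists (x axis) at the 10 sites of highest fold at 4 h (left) and at the 8 sites of highest fold that were called at every later time but not at 0 min (right). Lines join the values of 1 site, each relative to its own list, and a cross at 0 marks a list without a peak. Gnao1, at 100.4 at 4 h, is in both panels.

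Sites with several copies of CATGTG were less often called at 0 min than those with fewer, with no overlap of their intervals. The group with 3 or more copies was chosen after its values were seen, and it includes the Gnao1 and Tube1 sites. Its intervals are therefore a description and not a test. The 101 sites with 3 or more copies within 100 bp of the summit, on either strand, had up to 20. A 0 min peak was called at 47.5% of them (38.1 to 57.2), against 71.8% of the 2999 sites with none, 71.3% of the 1468 with 1 and 68.9% of the 366 with 2. Their median fold at 4 h, 11.7, was above the 9.63 of sites with none. The same held for all Myc 4 h peaks, where 49.8% of the 309 peaks with 3 or more copies were called at 0 min and 82.3% of those with none. Among the 707 sites of at least 20-fold, 15 had no 0 min peak, and 12 of these 15 held CATGTG, against 360 of the 692 called at 0 min. The 15 include the sites named above in Gnao1, Tube1, Traip, Egf, Fam131a and Ptprt, which held it, and in Nkpd1 and Kctd9, which did not. The count is thus not independent of those examples. Only 2 of the 15, Gnao1 and Tube1, had 3 or more copies, against 20 of the 692. The matching share over all Myc 4 h peaks of at least 20-fold is not given here.

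Presence at 0 min followed fold. Of the 494 sites of lowest fold at 4 h (3.50 to 6.23) 39.1% were called at 0 min, and of the 494 of highest fold (23.5 to 100.4) 98.4% were. CACGTG was at 6.88% of the lowest and 31.8% of the highest, and CATGTG at 31.4% and 53.6%. The AP-1 motif was at 36.0% of the lowest and 41.7% of the highest. Classes of peaks were therefore also set side by side within ranges of fold. Between 20- and 30-fold, 97.5% of the 435 sites inside genes and 99.8% of the 1896 promoter peaks were called at 0 min, and 24.8% and 18.6% had CACGTG. Below 10-fold, 50.9% of the sites and 69.7% of promoter peaks were called at 0 min, with CACGTG at 7.51% and 6.65%. From 50-fold up the order of the CACGTG shares was the other way, with 35.7% of the 56 sites inside genes and 47.2% of the 652 promoter peaks.

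**Figure D4:**
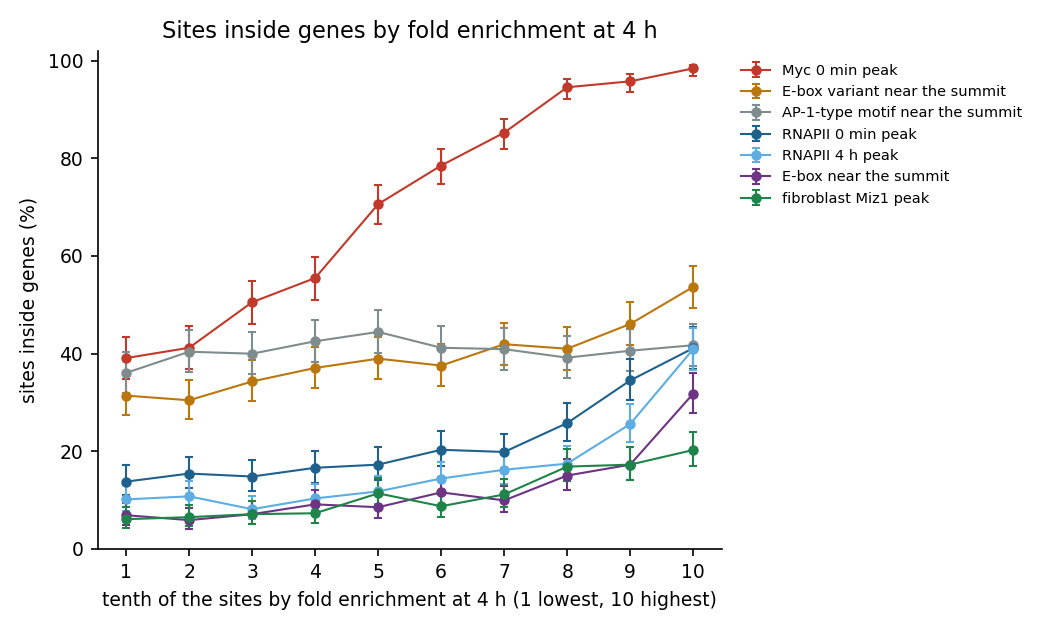
Sites inside genes in 10 equal groups by fold enrichment at 4 h (x axis, lowest to highest) and the share of each group (y axis, %, with 95% Wilson intervals) with a peak in the Myc 0 min, RNAPII 0 min, RNAPII 4 h and fibroblast Miz1 lists or a motif within 100 bp of the summit. The share called at 0 min runs from 39.1% to 98.4%, and the E-box share (CACGTG) from 6.88% to 31.8%, while the AP-1-type motif (TGANTCA) stays between 36.0% and 44.4%. The E-box variant is CATGTG.

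The 105 sites called at 4 h alone were weak. Their median fold was 6.58 and the highest was 10.7, in Ephb2, a receptor of ephrin ligands, with 52 tags in the peak. The next were in Bbs9, a protein of cilia, at 10.2 and in Slc4a4, a bicarbonate transporter, at 9.29. Then came Xrcc6bp1, Elmo1 and Odz4, at 9.29, 9.22 and 8.99. Of the 6, only the Ephb2 site had CACGTG.

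Nearly all the sites were intronic. The summit was in an intron in 4753 sites, 96.3% (95.8 to 96.8), and in 39.0% of these the intron was the first of at least 1 transcript. Coding sequence held 72 sites, 3′ UTRs 103 and 5′ UTRs 6. Exons made up 3.67% of the sites and 4.60% of the bases that met the rule, 737.7 Mb in all, which gave 6.69 sites per Mb. Along the host gene, the sites were spread from end to end, with the median at 49.5% of its length and 17.0% to 23.5% of the sites in each 20% of the length. The highest folds in coding sequence were in Nkpd1 (43.6), in Zfp771, a zinc finger gene (41.5), and in Agap2, a GTPase-activating protein (37.2). After these came Oit1 (25.3), Sh3pxd2a (25.2) and Sohlh2, a germ cell transcription factor (24.99). In UTRs, the highest were in Nln, the peptidase neurolysin (58.2), in Epb4.9 (55.2) and in Tmem44 (50.7). Aars, the alanyl-tRNA synthetase, had 39.5 and Cyb5r3, a cytochrome b5 reductase, 32.8.

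RNAPII lay over a minority of the sites. A narrow RNAPII peak overlapped 21.9% of them at 0 min (20.8 to 23.1), beside 52.5% of all Myc 4 h peaks and 90.4% of promoter peaks. At 10 min it was 25.8% beside 53.9%, at 20 min 32.6% beside 57.3%, and at 30 min 23.5% beside 52.3%. At 2 h it was 18.8% beside 50.2%, and at 4 h 16.6% (15.5 to 17.6) beside 49.1%. The 20 min list came from the deepest library, of 36396286 tags, so its share cannot be told apart from depth. The libraries at 0 min (15276996 tags) and 4 h (16268203) were close in depth. Between them, 427 sites were under RNAPII at 0 min only and 162 at 4 h only, while 655 were under it in both. Of the sites under RNAPII at 0 min, 39.5% were not under it at 4 h. Over all Myc 4 h peaks this share was 10.6%, at promoter peaks 2.83% and at distal peaks 32.3%. Each time was 1 library, so whether this differs from the spread between cultures could not be tested. Narrow peaks were also missing at single times at some sites, as described below. In the broad lists 11.2% of the sites were under RNAPII at 0 min, beside 45.2% of all peaks, 15.1% at 10 min beside 47.4%, and 22.8% at 20 min beside 52.6%. At 30 min it was 12.7% beside 44.8%, at 2 h 10.4% beside 44.1% and at 4 h 8.01% beside 42.8%.

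At some time 39.8% of the sites were under a narrow RNAPII peak, beside 61.5% of all peaks, and 450 sites, 9.12%, were under one at all 6 times, beside 43.5%. At no time was one called over 2972 sites, 60.2%. The RNAPII over the sites was mostly local. At 0 min, 960 of the 1082 sites under a peak (88.7%) were under one that did not come within 1000 bp of any TSS. Those peaks had a median length of 2479 bp. The rule itself placed every summit over 5 kb from a TSS, so a short peak over a site could seldom come that near. The peaks that did, over 122 sites, had a median length of 22618 bp. The RNAPII summit lay a median of 266 bp from the Myc summit at 0 min and 142 bp at promoter peaks.

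Sites of higher Myc fold were more often under RNAPII. At 0 min the share was 13.8% in the 494 sites of lowest fold and 41.1% in the 494 of highest, and at 4 h it was 10.1% and 40.9%. Among the 56 sites of at least 50-fold, 55.4% were under RNAPII at 0 min and 71.4% at 4 h. The share at 0 min was 26.9% for sites up to 10 kb from a TSS, 24.0% from 10 to 20 kb, 20.9% from 20 to 50 kb and 7.50% over 100 kb. Exonic sites were under RNAPII at 0 min in 34.3% of 181 cases, and intronic sites in 21.5%.

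The narrow lists left out some stretches. The Angptl2 site had narrow RNAPII folds of 49.3, 37.2, 45.2 and 57.6 from 0 to 30 min, no narrow peak at 2 h and 48.2 at 4 h, whereas the broad list gave 42.6 at 2 h. Nfic, a transcription factor of the nuclear factor I family, likewise had no narrow peak at 2 h and 15.4 in the broad list. From 26 sites at 4 h to 183 at 20 min were under a broad peak and no narrow one. Counting either kind, 22.6% of the sites were under RNAPII at 0 min, 36.3% at 20 min and 17.1% at 4 h.

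RNAPII differed among the highest sites. At the Slc7a5 site the narrow RNAPII fold was 16.2 at 0 min and 85.3, 62.2, 76.0, 74.5 and 94.4 at the later times, all above the first. The broad list had no peak there at 0 min, and its folds were 13.9 at 2 h and 9.69 at 4 h. Vps37b had 11.5 at 0 min and 12.65, 45.0, 14.3, 16.5 and 13.9 later, and Bahcc1 8.48 and then 31.6, 33.4, 39.6, 19.5 and 6.68. Pdpn had 8.65 at 0 min and 11.8 to 17.3 at the later times. The 6 highest sites under no narrow RNAPII peak at any time were in Gnao1, Ctif, 1300010F03Rik, Sorcs2, Edar and Trim2, with Myc folds of 62.5 to 100.4 at 4 h. All of these hosts but Edar had RNAPII at a promoter at 0 min, and Edar, the receptor of ectodysplasin, had none at any time.

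Miz1 in fibroblasts overlapped 555 sites, 11.2% (10.4 to 12.2), beside 14.5% of all Myc 4 h peaks. The fibroblast list was called at a lenient p of 1e-02, and with p of 1e-05 or less 360 sites, 7.30%, remained, beside 10.2% of all peaks. The median distance between the Miz1 and Myc summits was 164 bp, and 56.4% of the pairs were within 200 bp, against 43.7% at promoter peaks. Promoter peaks were longer, with a median of 2029 bp against 1538 bp for all sites inside genes. The effect of peak length on these distances was not tested. Sites with Miz1 were stronger for Myc and more often under RNAPII than sites without it, with median Myc folds of 13.2 and 9.86 and RNAPII at 0 min over 40.7% and 19.5%. The CACGTG share was 9.91% with Miz1 and 12.6% without it. The 6 highest Myc sites with Miz1 were in Angptl2, Arhgef10l, Camk1d, Ankrd55, 2310022B05Rik and Adamtsl3, and their Miz1 folds ran from 3.46 to 7.71. Of the 6 sites under no RNAPII, the one in Trim2, an E3 ubiquitin ligase, had a Miz1 fold of 23.1. In B cells Miz1 overlapped 65 sites, 1.32%, beside 5.03% of all peaks, and 26 sites were in both Miz1 lists. The B cell list was called at p of 1e-05, and the Myc sites are those of fibroblasts.

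The sites lay in 2416 host genes, and long genes held most of them. The median host was 89.9 kb long. Of the 13396 protein-coding genes of at least 10 kb, 17.8% were hosts. The share was 5.13% of genes of 10 to 30 kb, 20.0% of those of 30 to 100 kb, 45.1% of those of 100 to 300 kb and 51.4% of longer ones. A single site was found in 1382 hosts and 2 or more in 1034, which is 42.8% of hosts and 7.72% of all genes of at least 10 kb. Hosts with 5 or more sites numbered 221, and these held 30.9% of all sites.

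Some annotated genes were very long models that take in other genes. Gm20388 on chromosome 8 spanned 4.43 Mb and counted 81 sites, 56 of them with no other host. Fgfr2, the receptor of fibroblast growth factors, had a model of 3.01 Mb with 18 sites, 5 of them with no other host. Leaving out the 5 gene models over 2 Mb kept 4872 sites and 1032 hosts with 2 or more. After these, Atxn1, which encodes ataxin-1, had 16 sites in 410.1 kb, with folds of 4.81 to 33.6, and 13 of them were called at 0 min. The model 2010111I01Rik had 16 sites in 361.2 kb and Pde4d, a cyclic AMP phosphodiesterase, 15 in 1299 kb. Trio, a guanine nucleotide exchange factor, and Lpp, a LIM protein of focal adhesions, had 12 each, with highest folds of 48.3 and 27.3. All of these hosts had RNAPII at a promoter at 0 min and Myc at a promoter at 4 h. Cacna1c, which also had 12 sites, and Hivep3, with 11, had neither. At Trio the narrow RNAPII peaks covered 42.7% of the gene at 0 min and 40.8% at 4 h but none of it at 10 min, 20 min and 2 h, where the broad list covered 5.05% at 10 min and 22.3% at 20 min.

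Host genes more often had RNAPII at a promoter than other long genes. At 0 min 66.7% of the hosts had a narrow peak within 1000 bp of a TSS (64.8 to 68.5), beside 57.1% of all genes of at least 10 kb and 55.0% of those that were not hosts. The difference was largest among genes of at least 100 kb, where 65.1% of the hosts and 36.5% of the other genes had one. Between 30 and 100 kb it was 68.3% and 58.9%. A Myc 4 h peak lay at a promoter of 70.8% of the hosts, beside 57.6%. Hosts with 5 or more sites had RNAPII at the promoter at 0 min in 79.6% of cases and hosts with 1 site in 63.3%. Narrow RNAPII peaks covered at least 50% of the gene body, past its first 1000 bp, in 4.80% of hosts at 0 min, beside 5.99% of genes of at least 10 kb, and in 4.68% at 4 h, beside 6.89%. All genes of at least 10 kb were shorter than the hosts, with a median of 33.4 kb. Within classes of length the shares of the hosts at 4 h were above those of the other genes, but the intervals overlapped in each class. From 10 to 30 kb they were 15.5% (11.9 to 19.9) and 11.3% (10.5 to 12.1), and from 30 to 100 kb 4.71% and 3.87%. From 100 kb up they were 1.18%, which is 13 genes, and 0.316%, which is 4 genes. At 0 min the shares from 10 to 30 kb were 15.5% (11.9 to 19.9) and 9.80% (9.06 to 10.6), with no overlap. From 30 to 100 kb at 0 min they were 5.43% (4.18 to 7.03) and 2.95% (2.46 to 3.53), again with no overlap. From 100 kb up at 0 min they were 0.820% and 0.395%, and the intervals overlapped.

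A share of the sites lay in genes with no RNAPII at their promoters. In 1184 of the 4934 sites the host had no narrow promoter peak at any time. Such genes were less common among hosts, as 71.1% of hosts had a promoter peak at some time, beside 59.7% of all genes of at least 10 kb. The Myc folds of the 1184 sites were similar to those of the others, with a median of 9.86 against 10.2. Of the 1184 sites, 65.5% were called at 0 min, against 72.6%. They had CACGTG in 14.4% of cases, against 11.7%, and RNAPII over the site at 0 min in 10.6%, against 25.5%. The highest of them were in Dchs1, Parm1, Edar, Ankrd55, Cdh3 and Mbp, which encodes myelin basic protein, with Myc folds of 62.3 to 78.1 at 4 h. The Dchs1 site nevertheless had RNAPII over it in all 6 lists, with folds of 13.3 to 21.8, while Edar had none.

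Among the gene lists, which were chosen with earlier results of these data known, those of adhesion and of transcriptional regulation held many sites. In the list of focal adhesion and actin genes, 27 of 33 genes of at least 10 kb were hosts, with 98 sites, against 17.8% of all such genes. The genes of this list had a median length of 111.9 kb, and of all genes of 100 to 300 kb 45.1% were hosts. Lpp and Dlc1, a GTPase-activating protein with 9 sites, held most. The highest folds at 4 h were in the integrin subunits Itgb5 (36.9) and Itgb3 (26.5), in the myosin Myo10 (27.3) and in Lpp (27.3). Of the transcription factors of long genes, with a median of 187.7 kb, 25 of 28 were hosts, beside the same 45.1%. Cux1 and Glis3 had 9 sites each. The Ets1 site had a fold of 71.5 at 4 h and of 37.0 at 0 min, and the Nfic site 61.2 and 27.6. Nfix held 2 of the 4 highest sites, with 47.1 and 46.1, and both had CACGTG. This list was made of long genes, and long genes were more often hosts.

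In the TGF-beta and BMP signalling list, with a median length of 82.8 kb, 12 of 23 genes were hosts, beside 20.0% of all genes of 30 to 100 kb. Smad3, a receptor-activated signal transducer, had 10 sites and the coreceptor Tgfbr3 had 8. The highest folds at 4 h were in Smurf1, a ubiquitin ligase of the pathway (52.8), and in Ltbp2, a matrix protein related to the TGF-beta binding proteins (32.8). Among growth factor receptors and their signalling, with a median of 92.8 kb, 13 of 26 were hosts, beside the same 20.0%. Neither list was matched for length, and of all genes of 100 to 300 kb 45.1% were hosts. The receptor tyrosine kinase Axl had a site of 52.3-fold with CACGTG and a Miz1 fold of 11.2, and Met had 6 sites. Of fibroblast and matrix genes, with a median of 42.9 kb, 8 of 24 were hosts. The interval of this share, 18.0% to 53.3%, held the 20.0% of all genes of 30 to 100 kb. Most sites were in the lysyl oxidase family gene Loxl2 (8) and the collagen gene Col4a2 (5), and the highest fold was in fibrillin-1, Fbn1 (43.1).

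Of ribosome biogenesis genes, which are classic Myc promoter targets, 1 of 19 genes of at least 10 kb was a host, Polr1a, a subunit of RNA polymerase I, with a fold of 7.43 at 4 h. Their median length was 14.7 kb, and the share of 5.26% was near the 5.13% of all genes of 10 to 30 kb. Of circadian clock genes, with a median of 32.7 kb, 4 of 12 were hosts. The interval of this share, 13.8% to 60.9%, held the 20.0% of all genes of 30 to 100 kb. Among these hosts, Npas2 had 3 sites, of up to 21.1-fold, and Arntl 1 of 18.3-fold. Neuron markers, with a median length of 513.3 kb, had 5 hosts of 19, beside 51.4% of all genes of at least 300 kb. The highest of their sites was in Dlg2, at 36.6. Of B cell markers, with a median of 16.0 kb, 3 of 10 were hosts, Ebf1 with 6 sites, Bank1 with 3 and Blk with 2. The interval was 10.8% to 60.3%, beside 5.13% of all genes of 10 to 30 kb, but Ebf1 and Bank1 were 390.8 and 272.7 kb long. As a check of the cells, 8 of 10 fibroblast markers had RNAPII at a promoter at 0 min, all but Thy1 and Postn. None of 8 B cell markers did, but Ebf1, which was not among these 8, had RNAPII at a promoter at 0 min.

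**Figure D5:**
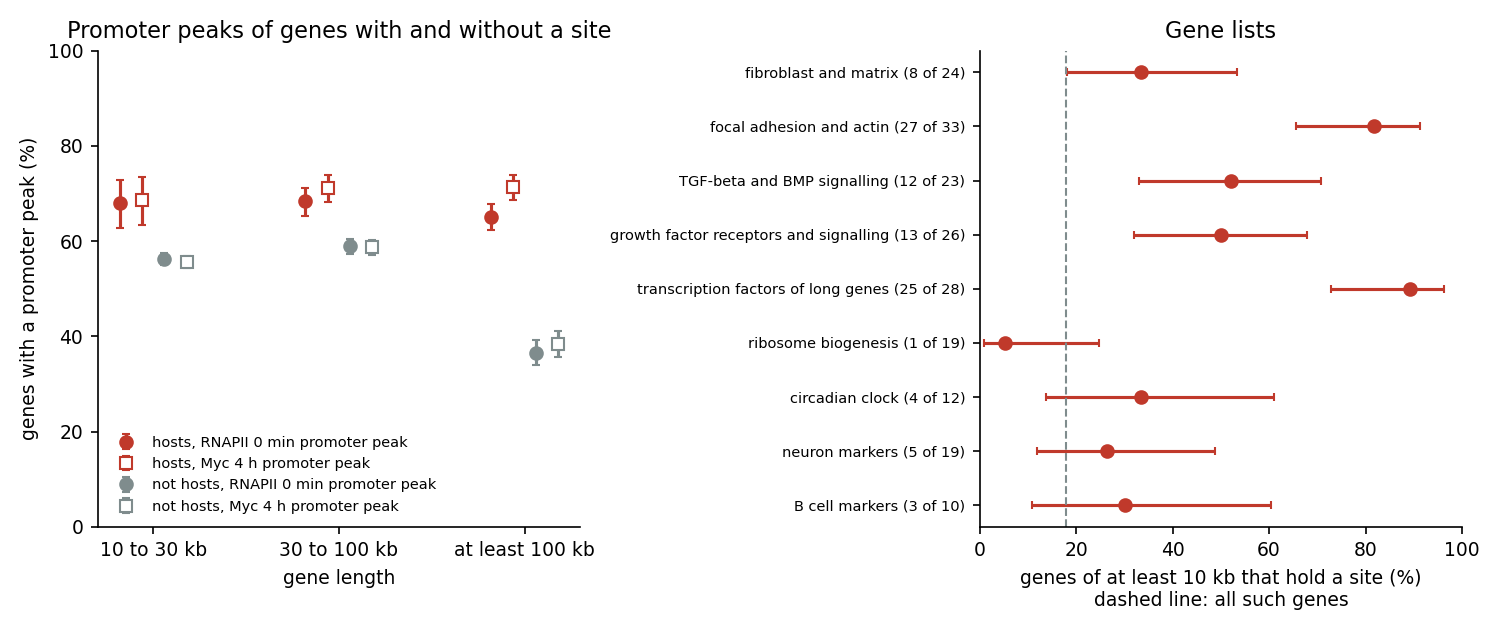
Left, share of genes (y axis, %, with 95% Wilson intervals) with an RNAPII 0 min peak (filled circles) or a Myc 4 h peak (open squares) at a promoter, by gene length (x axis), for genes with a site (hosts) and without. Right, share of the genes of at least 10 kb in each list that held a site (x axis, %), with the dashed line at 17.8% for all such genes. Hosts are above the other genes in each length class, and the adhesion and transcription factor lists are farthest to the right.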

How the data were processed

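Peak lists of 14 libraries, 1 per group, were used, each called by the authors against a control library. Reads had been processed with BWA 0.6.2-r126 and MACS2 2.0.9 on mm9, per the submitters' processing notes. Per the file headers, MACS 1.4.2 called the Myc lists and the narrow lists of RNAPII at a p cutoff of 1e-08, with the genome size set to 2.70e+09 bp. The headers give MACS 2.0.9 and 1.87e+09 bp for the broad lists of RNAPII (cutoff 1e-08) and for Miz1 (1e-02 in fibroblasts, 1e-05 in B cells). The tags in a peak are a raw count of the authors. The authors give significance as a p score on a scale of 10 times −log10 p in the MACS 1.4.2 lists and as −log10 p and −log10 q in the MACS 2.0.9 lists. The fold of a peak, a ratio over the control, was used as deposited. The false discovery rate is a percent, and the pileup at the summit a signal, as deposited. Peaks were called on single libraries, so nothing was pooled and no model or test between times was possible. A deeper library lets weaker peaks pass a fixed p.

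Gene models came from GENCODE vM1 (NCBIM37), and its chromosome names and lengths are those of mm9. Peaks shared a site when they overlapped by at least 1 bp. Where a site was in a coding sequence in 1 transcript and an intron in another, the exon was counted. Host genes were compared with the protein-coding genes of at least 10 kb. Promoters of genes were the 1000 bp either side of the TSSs of their protein-coding transcripts. Motifs were searched on both strands, and flanking windows were centred 1000 bp away. The 11 main counts and shares were recomputed with other distances, overlaps, peak cutoffs, motif windows and RNAPII lists, and 2 further settings were chosen after the data had been seen. The interval helpers were tested on simulated intervals. Analysis used Python 3.11.15 with numpy 2.4.6 and pandas 2.3.3.

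The members and gene lists were chosen with earlier results of these data known. Sites named were the 10 of highest fold at 4 h, the 8 highest with CACGTG, the 8 highest at all later times but not 0 min, the 6 highest at 4 h alone, in coding sequence, in UTRs, with fibroblast Miz1, under no RNAPII and in hosts without RNAPII promoter peaks. The 8 hosts with most sites, 3 sites on each side of 5 kb and up to 4 per gene list were added. Sequences shown are examples picked from the sites of highest fold in each motif group, leaving out UTRs and chromosome 18, and they are not always the highest. The sites with 3 or more CATGTG and the hosts that hold most sites of a list were chosen after their values were seen. A few of the genes that these rules name are not reported here.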

Additional observations from a re-analysis of the deposited data

How the results depend on the processing

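No paired analysis was possible because each group is 1 library. Of 80 values recomputed for 11 results, 47 stayed within the counting interval of the share, or within 1.5 times for counts, and 33 did not. With TSS distances over 2 kb the intronic share was 95.7%, RNAPII at 0 min 24.6%, RNAPII at 4 h 19.4% and hosts covered over 50% by RNAPII 6.83%. Over 10 kb these were 96.9%, 20.3%, 15.1% and 3.02%. With protein-coding TSSs only, RNAPII at 0 min was 23.5%, at 4 h 18.2% and covered hosts 5.68%. A p score of at least 160 in every Myc and narrow RNAPII list left 3169 sites and 679 hosts with several, with CACGTG at 14.5%, Myc at 0 min 66.7%, all 6 Myc lists 63.2%, RNAPII 18.3% and 13.3%, Miz1 14.7%, hosts with an RNAPII promoter peak 63.0% and covered hosts 3.47%. With equal numbers of peaks in each Myc list, 82.7% were called at 0 min and 71.8% in all 6. Broad RNAPII lists gave 11.2% at 0 min, 8.01% at 4 h, 62.3% of hosts with a promoter peak and 0.579% covered. The Miz1 share was 0.122% with an overlap of 50% of the Myc peak, 5.92% with the Myc summit inside the Miz1 peak and 7.30% with p of 1e-05 or less. Fibroblast Miz1 peaks had a median length of 302 bp and Myc 4 h peaks of 1722 bp. CACGTG within 50 bp was at 8.96% and within 200 bp at 14.9%, and CACGTG or CACGCG at 14.4%. Both alternatives chosen after seeing the data, joining narrow and broad RNAPII lists and leaving out gene models over 2 Mb, left all their values inside these limits. Presence shares moved with the cutoff, and depth differed between lists.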
